A study of Mus musculus with 11 samples.

Results

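Integrins are cell surface receptors built from 1 α and 1 β chain, and transcripts of 10 leukocyte integrin chains were measured in mouse splenic germinal center B cells. The 10 genes were taken by symbol from a table of 48593 genes: the α chains Itga4, Itga6, Itgae, Itgal, Itgam, Itgav and Itgax and the β chains Itgb1, Itgb2 and Itgb7. All 10 were found, and all passed the filter for testing, a mean of at least 10 normalized read counts over the 11 libraries, which left 16515 genes. The study asked how transcription in germinal center B cells differs when either of the lysine acetyltransferases CBP (Crebbp) and p300 (Ep300) is deleted. There were 3 CBP-KO libraries (both Crebbp alleles floxed, Ep300 wild type), 3 p300-KO libraries (both Ep300 alleles floxed, Crebbp wild type) and 5 WT libraries (both genes wild type). Every mouse, WT included, carried 1 Cg1cre allele, which places Cre under the immunoglobulin γ1 constant region locus, so deletion takes place in B cells activated by antigen. Mice were injected intraperitoneally with sheep red blood cells and, after 12 days, spleen cells with B220, PNA and CD95 on their surface were sorted. By the labels the WT mice came from crosses of Crebbp mice, and none was labelled a littermate of the p300-KO mice, so cross and loss of Ep300 cannot be told apart. Age, sex and batch are not given in the labels.

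Integrins hold leukocytes to vessel walls, matrix and other cells, and switch between low and high affinity states through proteins that bind their cytoplasmic tails, among them talins and kindlins. In the germinal center, B cells attach to follicular dendritic cells through α4β1, which binds VCAM-1, and through αLβ2 (LFA-1), which binds ICAM-1. A functional receptor needs both chains, so the α and β transcripts are described here by the pairs that their proteins form.

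Read depth, recovered from the normalized counts, lay between 53550726 and 132861266 reads per library. All 12 germinal center B cell markers examined were above the filter. Their summed level lay between 514970 and 629390 normalized counts in CBP-KO, 600070 and 655850 in p300-KO, and 590200 and 647500 in WT libraries. Among them 3, Cd79a, Fas and Rgs13, were called lower in CBP-KO against WT, where 4.88% of all tested genes were. In p300-KO against WT, Fas and Rgs13 were called lower, where 6.09% of all tested genes were, and S1pr2 was called higher. These genes were named after their values were seen. Ep300 averaged 14466 ± 600 normalized counts in p300-KO libraries and 21268 ± 1276 in WT libraries (SD, n = 3 and 5; limma adjusted p = 0.00015). Crebbp averaged 8247 ± 612 in CBP-KO libraries and 8866 ± 743 in WT libraries (adjusted p = 0.459). Because reads of all Crebbp exons were counted together, this value does not check the CBP-KO label. WT_46 stood apart on the first principal component, at 57.7 against 11.3 to 28.3 in the other WT libraries. p300-KO_18 held both Xist (98751 normalized counts) and Y-linked transcripts (a sum of 9852). Some results that rest on these libraries are also given without them. Group levels are given in normalized read counts (mean ± SD), and fold changes are log2(value + 1) with the standard error of a limma fit over all tested genes. A gene was called at a Benjamini-Hochberg adjusted p below 0.05.

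Set against WT, none of the 10 integrin transcripts was called higher in either knockout by the main limma fit or by edgeR. DESeq2 called 1, Itgb2 in p300-KO, where it called 1327 of all genes higher. In 4 of its other settings limma also called Itgb2. Among them was a mean of at least 50 with all 11 libraries (limma adjusted p = 0.0492). At an unadjusted limma p below 0.05 there were 2, Itgal and Itgb2 in p300-KO. In CBP-KO cells 3 members were lower, the fibronectin and laminin receptor chain Itgb1, the laminin receptor chain Itga6 and the LFA-1 chain Itgal. Of all tested genes 8.36% were called in this comparison, 4.88% as lower and 3.48% as higher. Without CBP-KO_53, CBP-KO_55 or WT_4 all 3 calls were lost. Those fits called 433, 372 and 654 of the 16515 genes lower, against 806 with all libraries. By edgeR 4 members and 755 of all genes were lower, and by DESeq2 6 members and 1142 genes. In p300-KO cells 2 members were lower, Itga4 and Itga6 (3 by edgeR and 4 by DESeq2). Of all tested genes limma called 11.9% there, 6.09% as lower and 5.84% as higher. Of the 16515 genes, edgeR called 978 lower and DESeq2 1373. Set against p300-KO, CBP-KO cells had 2 members higher, Itga4 and Itgav, and 2 lower, Itgal and Itgb2. In that comparison 9.42% of all tested genes were called, 4.79% as higher and 4.63% as lower. The median log2 fold change of the 10 members was -0.22 in CBP-KO against WT, -0.25 in p300-KO against WT and -0.12 between the knockouts, where the medians of all tested genes were 0.01, -0.01 and -0.003. The comparisons share libraries and are not independent of each other. For called members the changes were small, the largest being -0.75 on the log2 scale, for Itga6 in p300-KO cells. In bulk samples such as these, fewer cells of a type and less RNA per cell cannot be told apart.

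**Figure D1:**
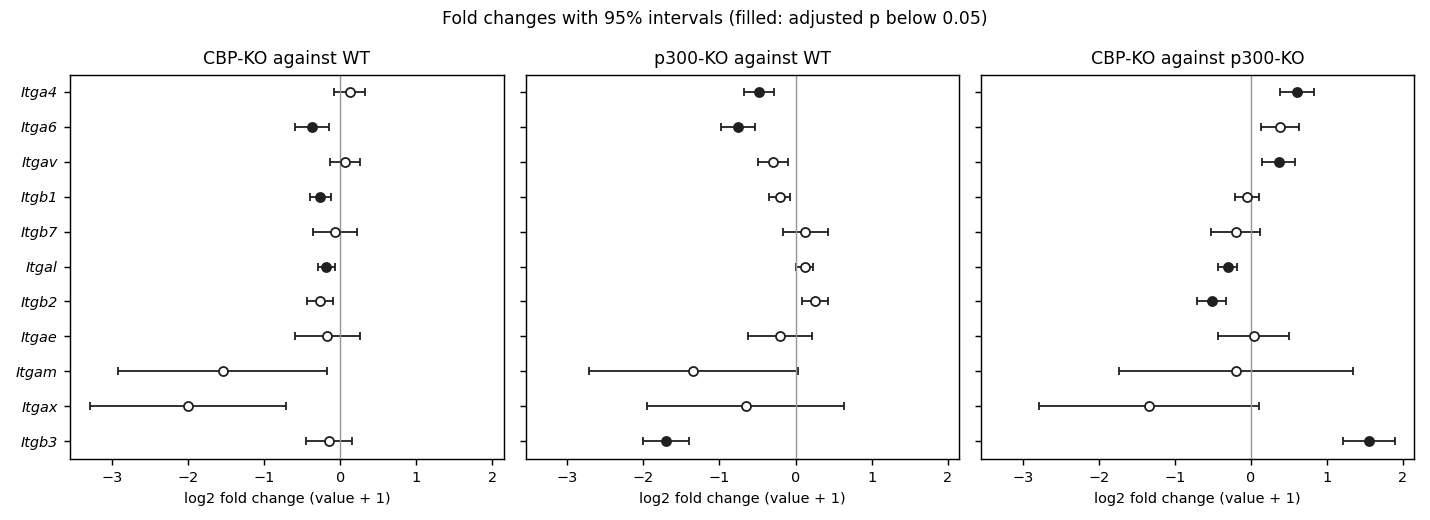
Log2 fold changes (value + 1) of the 10 integrin members and of Itgb3, a partner of Itgav, with 95% intervals, in 1 panel per comparison; filled points passed an adjusted p of 0.05. Itga4 and Itga6 lie left of 0 in p300-KO against WT, and in CBP-KO against p300-KO Itga4 lies at 0.60 and Itgb2 at -0.51.

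Per kilobase of exon, the β2 and β1 chains and αL were the most abundant of these transcripts in every group. In CBP-KO cells Itgb2 stood at 4545 ± 208 normalized counts per kb, Itgb1 at 2613 ± 178 and Itgal at 2360 ± 84.6 (n = 3). p300-KO cells had 6489 ± 165 for Itgb2, 2702 ± 184 for Itgb1 and 2914 ± 127 for Itgal (n = 3). In WT cells the levels were 5470 ± 605 for Itgb2, 3126 ± 170 for Itgb1 and 2682 ± 122 for Itgal (n = 5). Itgb2 ranked first in all 3 groups with no overlap with the next gene. Itgb1 and Itgal overlapped in p300-KO and WT cells, so their order there is not separated beyond the spread of libraries. Itga4 and Itgav followed at a lower level and overlapped each other in CBP-KO and WT cells, at 463 ± 36.0 and 441 ± 53.3 per kb in CBP-KO and 426 ± 51.2 and 419 ± 26.1 per kb in WT. In p300-KO cells Itgav (343 ± 45.1), Itgb7 (320 ± 11.2) and Itga4 (304 ± 16.3) formed an overlapping group. Itga6 and Itgb7 overlapped in WT cells only. Itgae, the α chain that pairs with β7 in intraepithelial lymphocytes, reached 26.9 ± 3.28 per kb in CBP-KO, 26.4 ± 5.04 in p300-KO and 30.4 ± 5.38 in WT. Itgax and Itgam, chains of myeloid receptors, came last in each group, at 16.1 per kb or less on average. Exon length here counts every annotated exon of a gene, 13978 bp for Itga4, so a gene with long exons that these cells do not use is understated.

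**Figure D2:**
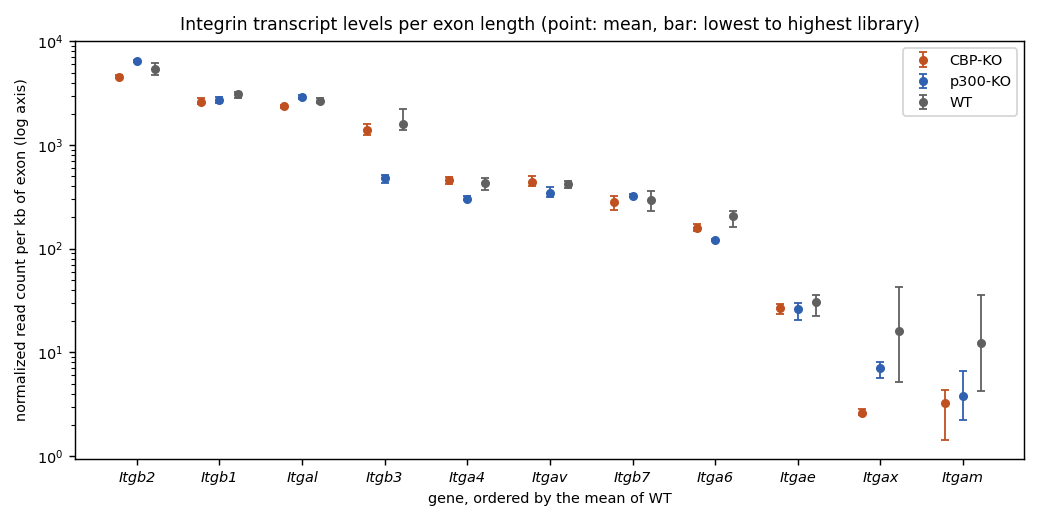
Normalized read count per kb of exon on a log axis for the 10 members and Itgb3, ordered by the WT mean; points are group means and bars run to the lowest and highest library. Itgb2 is highest in all groups, and Itgb3 stands at 1411 per kb in CBP-KO, 481 in p300-KO and 1584 in WT.

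Itga4 encodes α4, which pairs with β1 to bind VCAM-1 and fibronectin and with β7 to bind MAdCAM-1. The gene lies on the plus strand of mm10 chromosome 2, from 79255426 to 79333123. The 250 bases before its start and before that of Itgav, which lies on the same strand from 83724397 to 83806916, are shown because both transcripts were higher in CBP-KO than in p300-KO cells. They are RefSeq sequences of build GRCm38.p6 (chr2:79255176-79255425 and chr2:83724147-83724396), read 5′ to 3′ on the plus strand, with a GC box (GGGCGG or its complement CCGCCC) in capitals.
Itga4: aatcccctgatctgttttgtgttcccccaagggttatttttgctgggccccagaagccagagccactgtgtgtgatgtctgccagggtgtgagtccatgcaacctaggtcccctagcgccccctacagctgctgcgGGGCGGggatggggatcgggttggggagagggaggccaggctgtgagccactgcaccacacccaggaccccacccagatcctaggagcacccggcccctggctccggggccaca
Itgav: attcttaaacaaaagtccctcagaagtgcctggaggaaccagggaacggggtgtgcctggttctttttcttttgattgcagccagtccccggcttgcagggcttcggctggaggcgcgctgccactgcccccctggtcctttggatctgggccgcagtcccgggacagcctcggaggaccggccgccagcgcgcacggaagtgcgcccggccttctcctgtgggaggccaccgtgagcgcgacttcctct
The Itga4 stretch has 64.0% G and C with 1 GC box, and the Itgav stretch 64.4% with no GC box, where the median over 32851 mouse promoters is 52.4%. A GC box stands in 3 of the 6 member promoters in the RefSeq table (Itga4, Itgam and Itgb1) and in 32.7% of all promoters of this length. The cAMP response element core TGACG (or CGTCA) stands in 1 of the 6, that of Itgb1, and in 17.8% of all. An ETS core, GGAA or TTCC, is in all 6 and in 93.4% of all.

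In CBP-KO_1, CBP-KO_53 and CBP-KO_55, Itga4 stood at 6842, 6661 and 5896 normalized counts. It stood at 4079, 4511 and 4169 in p300-KO_18, p300-KO_287 and p300-KO_289, against 5826, 6711, 5091, 6665 and 5499 in WT_4, WT_7, WT_41, WT_46 and WT_288; libraries keep this order below. All 3 p300-KO libraries lay below all others, and the CBP-KO and WT libraries overlapped. Itga4 fell by 0.48 ± 0.09 in p300-KO against WT (limma adjusted p = 0.00513) and was higher by 0.60 ± 0.10 in CBP-KO against p300-KO (adjusted p = 0.00329). CBP-KO against WT gave 0.12 ± 0.09 (adjusted p = 0.478, 95% interval -0.07 to 0.32). Exons of Itga4 share 1124 bp, 8.04% of its exon length, with Cerkl on the other strand, which the unstranded libraries do not separate. Cerkl averaged 4.91% of the Itga4 level.

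Itga6 encodes α6, which with β1 or β4 binds laminin, and lies on the plus strand of chromosome 2 from 71745616 to 71858416. It stood at 1551, 1339 and 1404 normalized counts in CBP-KO, at 1090, 1129 and 1063 in p300-KO, and at 1964, 1800.0, 1469, 2094 and 1967 in WT. The p300-KO libraries were the lowest 3 of the 11, while the highest CBP-KO library overlapped the lowest WT library, WT_41. The fall was 0.75 ± 0.10 in p300-KO against WT (limma adjusted p = 0.000711) and 0.37 ± 0.10 in CBP-KO against WT (adjusted p = 0.0449). The call in CBP-KO was lost under 13 of 20 alternative settings, among them leaving out any 1 library other than CBP-KO_1 or WT_41. The adjusted p became 0.185 on leaving out CBP-KO_53, 0.149 on leaving out CBP-KO_55, and 0.0908 on leaving out WT_46 with p300-KO_18. Between the knockouts the libraries did not overlap, with CBP-KO higher by 0.38 ± 0.12 (adjusted p = 0.0549, and called in 5 of 20 settings).

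Itgav encodes αv, which pairs with several β chains to bind RGD peptides of vitronectin and fibronectin. It stood at 5394, 4442 and 4367 normalized counts in CBP-KO, at 3386, 4243 and 3424 in p300-KO, and at 4276, 4752, 4516, 4160 and 4794 in WT. All CBP-KO libraries lay above all p300-KO libraries, and p300-KO_287 reached into the WT range. CBP-KO was higher than p300-KO by 0.36 ± 0.10 (limma adjusted p = 0.0438). That call was lost under 13 of 20 settings, with adjusted p up to 0.144, without p300-KO_18. It was kept, of the fits without 1 library, only without p300-KO_287 or WT_46. p300-KO against WT gave -0.29 ± 0.09 (adjusted p = 0.0552, called in 5 of 20 settings), and CBP-KO against WT 0.07 ± 0.09 (adjusted p = 0.727).

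Itgb3, no member but the β chain of αvβ3, was lower in p300-KO cells than in both other groups. It stood at 9461, 7399 and 8123 normalized counts in CBP-KO, at 3023, 2979 and 2517 in p300-KO, and at 8387, 8285, 8686, 13040.0 and 8340 in WT. Every p300-KO library was far below all other libraries. The fall was 1.70 ± 0.14 in p300-KO against WT (limma adjusted p = 2.39e-05), and CBP-KO was higher than p300-KO by 1.55 ± 0.16 (adjusted p = 0.000112). Without WT_46, the highest library, the log2 difference of p300-KO against WT was -1.57 (adjusted p = 8.43e-07). CBP-KO against WT gave -0.15 ± 0.14 (adjusted p = 0.591). The ratio of Itgav to Itgb3 per kb of exon lay between 0.295 and 0.330 in CBP-KO libraries, 0.615 and 0.782 in p300-KO libraries, and 0.175 and 0.316 in WT libraries.

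Itga6, Itga4 and Itgav lie within 12.1 Mb of chromosome 2. Of 45 other tested genes between the outer ends of this window, none was called by limma in p300-KO against WT. Over all genes limma called 11.9% there. Of the 45, 11 had an unadjusted p under 0.05, and edgeR called 1 and DESeq2 3. Of all 16515 genes, edgeR called 1961 and DESeq2 2700. The median log2 fold change of the 45 was -0.03. In CBP-KO against p300-KO, where 4.79% of all genes were higher and 4.63% lower, 3 of the 45 were higher and 1 was lower. There 14 of the 45 had an unadjusted p under 0.05, and edgeR called 6 and DESeq2 8. Over all genes edgeR called 1525 in that comparison and DESeq2 2338. The share of all genes with an unadjusted p under 0.05 was not counted. Whether the window as a whole differed was not tested.

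**Figure D3:**
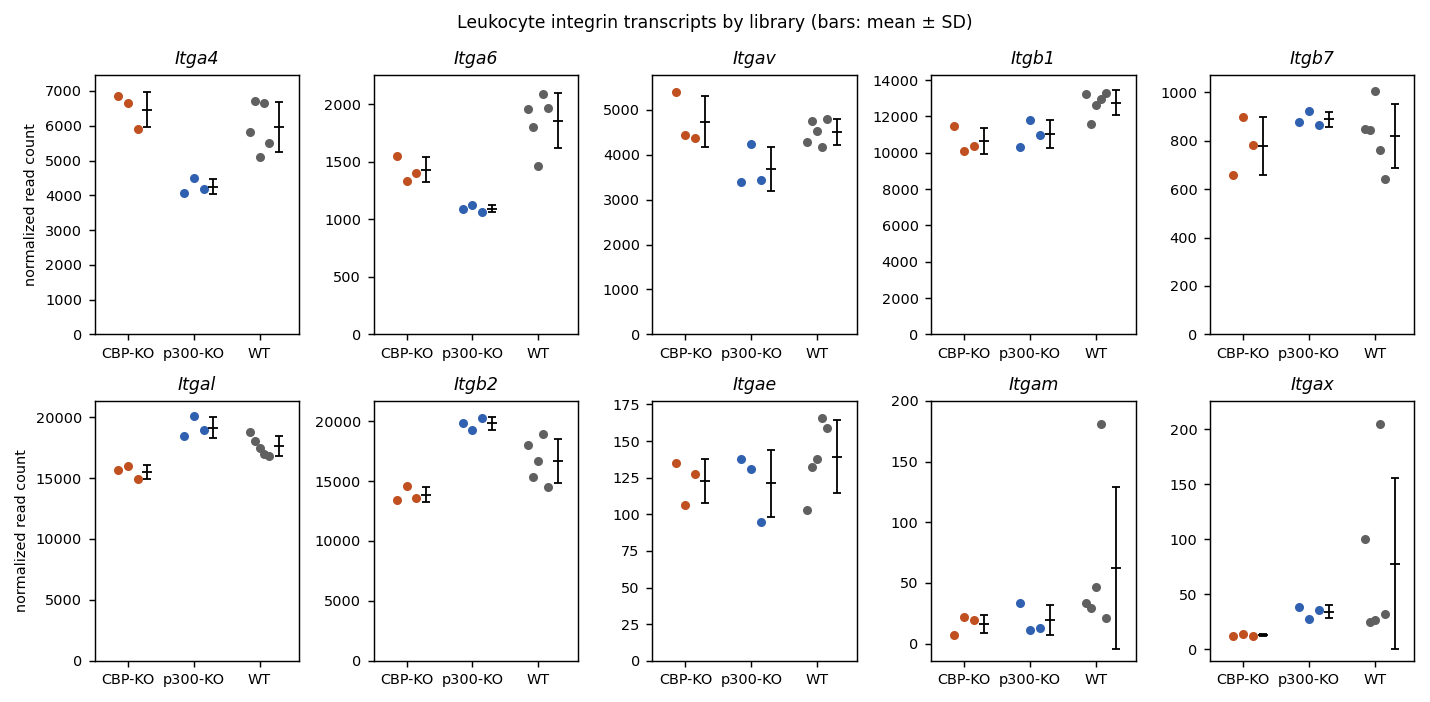
Normalized read counts of the 10 integrin members, 1 point per library, with mean ± SD beside each group (3 CBP-KO, 3 p300-KO and 5 WT libraries). The Itga4, Itga6 and Itgb2 points of p300-KO lie apart from those of WT, and the SD bars of Itgam and Itgax in WT are set by 1 or 2 libraries.

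Itgb1 encodes β1, the common partner of α4, α6 and several other α chains. It stood at 11488, 10117 and 10387 normalized counts in CBP-KO, at 10306, 11806 and 10974 in p300-KO, and at 13261, 11602, 12652, 12981 and 13283 in WT. Each CBP-KO library was below the lowest WT library, WT_7, and p300-KO_287 was the only knockout library to overlap WT. The fall in CBP-KO against WT was 0.26 ± 0.06 (limma adjusted p = 0.026). It was lost without CBP-KO_53 (adjusted p = 0.135), CBP-KO_55 (0.112), WT_4 (0.0549) or WT_288 (0.0526), and kept in the other 16 settings. p300-KO against WT gave -0.21 ± 0.06 (adjusted p = 0.0512, called in 6 of 20 settings), and the knockouts differed by -0.05 ± 0.07 (adjusted p = 0.728, 95% interval -0.20 to 0.11). The ratio of Itga4 to Itgb1 per kb lay between 0.166 and 0.192 in CBP-KO, 0.111 and 0.116 in p300-KO, and 0.117 and 0.169 in WT.

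Itgal and Itgb2 encode the 2 chains of LFA-1, the receptor for ICAM-1. Itgb2 stood at 13410.0, 14595 and 13605 normalized counts in CBP-KO, at 19832, 19290.0 and 20295 in p300-KO, and at 18037, 15298, 16662, 18958 and 14513 in WT. All 3 p300-KO libraries were above every WT library, and of the CBP-KO libraries only CBP-KO_53 was above the lowest WT library. CBP-KO was lower than p300-KO by 0.51 ± 0.09 on the log2 scale (limma adjusted p = 0.00345). Against WT, Itgb2 differed by -0.26 ± 0.08 in CBP-KO (adjusted p = 0.0604) and by 0.25 ± 0.08 in p300-KO (adjusted p = 0.0544), and neither was called. DESeq2 called both (adjusted p = 0.0193 and 0.0268), as did limma without WT_288 for CBP-KO (0.0216) and without WT_46 for p300-KO (0.0155).

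Itgal stood at 15628, 15990.0 and 14899 normalized counts in CBP-KO, at 18450.0, 20069 and 18914 in p300-KO, and at 18773, 18022, 17481, 17002 and 16803 in WT. The CBP-KO libraries lay below all others, and those of p300-KO overlapped WT at the upper end. Itgal fell by 0.18 ± 0.05 in CBP-KO against WT (limma adjusted p = 0.045) and by 0.30 ± 0.06 in CBP-KO against p300-KO (adjusted p = 0.00639). The call against WT was lost in 11 of 20 settings, with adjusted p up to 0.192, without CBP-KO_55, and also without CBP-KO_1, CBP-KO_53, p300-KO_18, p300-KO_289, WT_4, WT_7 or WT_41. p300-KO against WT gave 0.12 ± 0.05 (adjusted p = 0.159). The calls of Itgal, Itgb2 and Itga4 between the knockouts, and those of Itga4 and Itga6 in p300-KO against WT, were kept in all 20 settings, with WT_46 and p300-KO_18 left out among them.

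The balance of β2 to β1 transcripts also separated p300-KO. The ratio of Itgb2 to Itgb1 per kb lay between 1.56 and 1.93 in CBP-KO, 2.19 and 2.57 in p300-KO, and 1.46 and 1.95 in WT. The ratio of Itgal to Itgb2 lay between 0.509 and 0.542 in CBP-KO, 0.432 and 0.483 in p300-KO, and 0.417 and 0.547 in WT, so WT spanned both. Neither Itgb2 nor Itgb1 was called in p300-KO against WT by the main limma fit. Other ratios were also computed. Those of Itga6 to Itgb1 and of Itga4 to Itgb7 lay below WT in p300-KO. Both knockouts lay above WT for Itga4 to Itga6, and p300-KO overlapped WT for Itgav to Itgb1. These ratios are descriptions without a test.

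**Figure D4:**
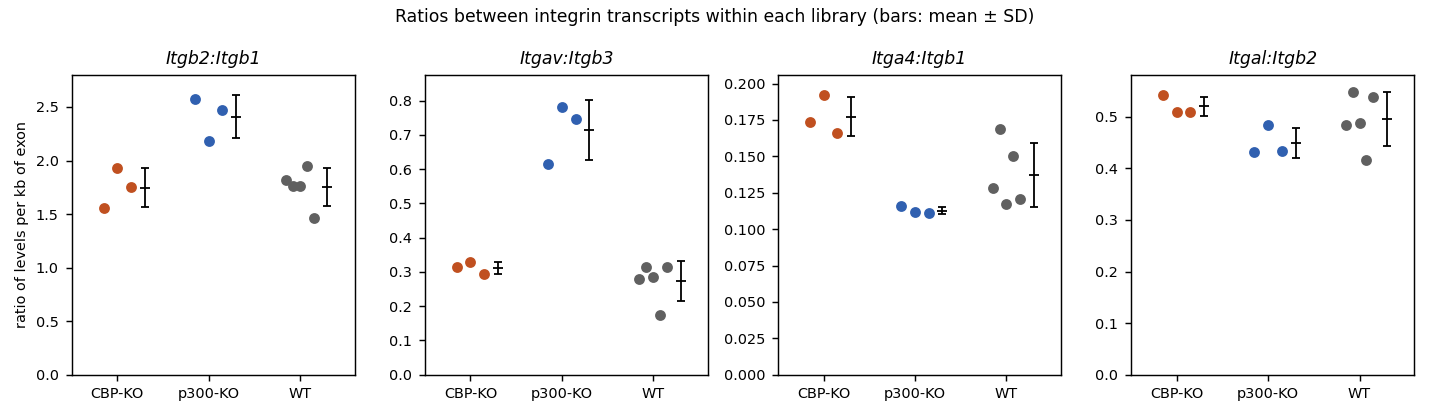
Ratios of integrin transcripts within each library, as normalized counts per kb of exon, with mean ± SD beside each group. p300-KO libraries lie at 2.19 to 2.57 for Itgb2 to Itgb1 and at 0.615 to 0.782 for Itgav to Itgb3, above the CBP-KO and WT libraries in both.

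Itgax encodes αX (CD11c) and Itgam αM (CD11b), which pair with β2 on dendritic cells, macrophages and neutrophils and bind the complement fragment iC3b. Itgax stood at 12.1, 13.8 and 12.0 normalized counts in CBP-KO, at 38.6, 27.2 and 35.8 in p300-KO, and at 100.2, 24.7, 26.2, 204.8 and 31.6 in WT. The CBP-KO libraries lay below all others, and within WT the levels of WT_4 and WT_46 stood above the other 3. CBP-KO against WT gave -2.001 ± 0.60 (limma adjusted p = 0.0586), and -1.52 without WT_46 (adjusted p = 0.0497). It was also called without WT_7 (0.0414) or WT_41 (0.0495), and was not called without WT_46 and p300-KO_18 (0.0683) or without any 1 CBP-KO library (0.124 to 0.165). p300-KO against WT gave -0.66 ± 0.60 (adjusted p = 0.547), and -0.18 without WT_46. In CBP-KO against WT the adjusted p was 0.0482 by edgeR and 0.00128 by DESeq2, and in p300-KO against WT 0.277 and 0.193. CBP-KO against p300-KO gave -1.34 ± 0.67 (limma adjusted p = 0.235).

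Itgam stood at 7.24, 21.6 and 19.7 normalized counts in CBP-KO, at 33.5, 11.2 and 12.8 in p300-KO, and at 33.4, 29.1, 46.8, 181.2 and 21.1 in WT. The groups overlapped, with WT_46 far above the rest. The log2 difference was -1.54 ± 0.63 in CBP-KO against WT (limma adjusted p = 0.167, and 0.0453 by DESeq2). It was -1.35 ± 0.63 in p300-KO against WT (limma adjusted p = 0.203). On leaving out 1 library, limma gave -1.81 to -1.04 in CBP-KO against WT and -1.82 to -0.85 in p300-KO against WT. A same-strand gene model of the annotation used here, Gm49368, covers 68.7% of the exon length of Itgam. The deposited values hold no gene of that name, so its effect on the Itgam count cannot be told.

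Macrophage markers were also lower in CBP-KO than in WT libraries. The sum of 18 macrophage and monocyte markers was 2118 to 3036 normalized counts in CBP-KO, 2620 to 3488 in p300-KO and 3777 to 9688 in WT, highest in WT_46. Mpeg1 made up the largest share, at 6428 in WT_46, and without it the sums were 1015 to 1324 in CBP-KO, 1354 to 1874 in p300-KO and 1452 to 3260 in WT. Without Mpeg1 p300-KO thus overlapped WT and CBP-KO did not. C1qb was at most 3.93 in CBP-KO, 32.0 in p300-KO and 108 in WT. Of 11 such markers tested, 5 were called lower in CBP-KO against WT (Adgre1, C1qb, C1qc, Mpeg1 and Axl) and 1, Mpeg1, in p300-KO against WT, where 4.88% and 6.09% of all genes were. The median log2 difference of the 11 was -1.63 in CBP-KO and 0.06 in p300-KO. These calls and medians are from the fit with all libraries, WT_46 included. The sum of 9 dendritic cell markers, mostly Flt3, was 3066 to 3567 in CBP-KO, 2719 to 2903 in p300-KO and 4360 to 5814 in WT. S100a8, Ly6g, Mpo, Elane and Retnlg, 5 of 8 neutrophil markers, were at 0 in every library. The part of other cells in the Itgax and Itgam values was not tested.

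**Figure D5:**
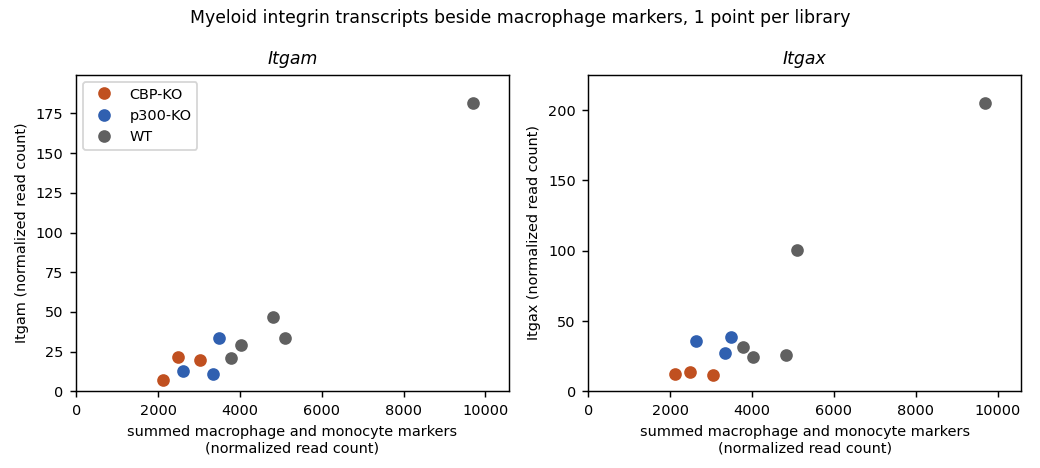
Itgam and Itgax in each library (normalized read counts) against the summed level of 18 macrophage and monocyte markers. WT_46 is the highest on both axes, and the CBP-KO libraries lie at Itgax 12.0 to 13.8 with sums of 2118 to 3036.

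Itgae encodes αE (CD103), which with β7 binds E-cadherin, and Itgb7 the β7 chain. Itgae lay between 106 and 135 normalized counts in CBP-KO, 94.7 and 138 in p300-KO and 103 and 165 in WT. Itgb7 lay between 658 and 897 in CBP-KO, 864 and 923 in p300-KO and 640 and 1003 in WT. The groups overlapped for both genes in each comparison. The 95% interval of the log2 difference against WT for Itgae ran from -0.59 to 0.26 in CBP-KO and from -0.62 to 0.22 in p300-KO. For Itgb7 it ran from -0.36 to 0.22 in CBP-KO and from -0.16 to 0.42 in p300-KO. Haspin lies within Itgae on the other strand and averaged 3624 normalized counts, far above Itgae, though the 2 share no exon bases.

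Of 17 other integrin subunits, 8 were tested, and Itgb6 and Itgb2l were at 0 in every library. In CBP-KO against WT 1 of the 8 was called higher and 0 lower, where 3.48% and 4.88% of all genes were. In p300-KO against WT 1 was called higher and 1, Itgb3, lower, where 5.84% and 6.09% of all genes were. Itga3, a laminin receptor chain, rose in both knockouts by 2.32 ± 0.37 (limma adjusted p = 0.00248 in CBP-KO and 0.00177 in p300-KO). It stood at 50.7, 76.7 and 60.0 normalized counts in CBP-KO and 87.3, 44.7 and 58.9 in p300-KO, against 7.43, 11.6, 18.7, 17.1 and 7.03 in WT. Neither knockout overlapped WT, and CBP-KO and p300-KO overlapped each other. Itgb5 averaged 240 normalized counts in CBP-KO and 186 in p300-KO, against 113 in WT. It was called in neither (limma adjusted p = 0.0766 and 0.189), with CBP-KO above all WT libraries and p300-KO overlapping WT. The lists in this and the next paragraphs were drawn up with results of these data known, so their counts support nothing by themselves.

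Of 36 tested genes that regulate integrin activation or link integrins to actin, 2 rose and 6 fell in CBP-KO against WT. Of all tested genes, 3.48% rose and 4.88% fell. Rapgef1, an exchange factor for Rap1, averaged 32891 in CBP-KO and 40838 in WT normalized counts (limma adjusted p = 0.00489). In p300-KO it averaged 35959, also below all WT libraries but not called (limma adjusted p = 0.0511), and the knockouts overlapped. Zyx, which encodes the focal adhesion protein zyxin, stood at 267, 320 and 299 in CBP-KO, at 901, 1079 and 884 in p300-KO, and at 614, 538, 393, 787 and 533 in WT. CBP-KO lay below and p300-KO above all WT libraries. Zyx fell by 0.92 ± 0.18 in CBP-KO against WT (limma adjusted p = 0.00703), rose by 0.77 ± 0.18 in p300-KO against WT (adjusted p = 0.0144), and was lower by 1.69 ± 0.20 in CBP-KO than in p300-KO (adjusted p = 0.000291). The rise in p300-KO was lost without p300-KO_287 (adjusted p = 0.0694). Fermt3 encodes kindlin-3, and Sipa1 a GTPase-activating protein that turns Rap1 off. Fermt3 and Sipa1 fell by 0.28 ± 0.06 and 0.25 ± 0.05 in CBP-KO (limma adjusted p = 0.00852 and 0.00879). Both calls were lost without CBP-KO_55 (adjusted p = 0.0509 and 0.0558). The other 4, named after their values were seen, were Vcl and Crkl, higher, and Flna and Rasgrp2, lower, the last lost in 10 of 20 settings. Without CBP-KO_53 the counts were 0 higher and 6 lower, and without CBP-KO_55 0 higher and 2 lower.

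In p300-KO against WT, 2 of the 36 rose and 4 fell, where 5.84% and 6.09% of all genes did. Cyth1, which encodes a protein that binds the β2 tail, fell by 0.30 ± 0.05 (limma adjusted p = 0.00262). Skap2, an adaptor of integrin activation, fell by 0.31 ± 0.08 (limma adjusted p = 0.0182, and 0.0878 without p300-KO_18). The CBP-KO libraries also lay below all WT libraries for Skap2, by 0.22 ± 0.08, but it was not called there (limma adjusted p = 0.0921). Parvb, which encodes β-parvin, averaged 6.30 ± 3.34 in p300-KO and 26.6 ± 3.65 in WT normalized counts, and fell by 2.02 ± 0.40 (adjusted p = 0.0063). Rap1a, lower, and Pxn, higher, completed the count, were named after their values were seen, and were each lost in 10 of 20 settings. Without p300-KO_18 the counts were 1 higher and 2 lower, and without p300-KO_287 0 higher and 4 lower. Between the knockouts, CBP-KO had 2 of the 36 higher (Crk and Crkl) and 3 lower (Zyx, Flna and Rasgrp2), named after their values were seen except Zyx, where 4.79% of all genes were higher and 4.63% lower. The calls of Crk and Crkl were lost in 12 and 11 of 20 settings.

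Of 19 tested ligands and counter-receptors, Cdh1 and Lamc1 rose in CBP-KO against WT, and 4 rose and 1 fell in p300-KO against WT. Over all genes 3.48% rose in CBP-KO, and 5.84% rose and 6.09% fell in p300-KO. Without any 1 CBP-KO library, neither Cdh1 nor Lamc1 was called in CBP-KO. Cdh1 encodes E-cadherin, the ligand of αEβ7, and stood at 43.4, 51.2 and 65.5 normalized counts in CBP-KO and 37.8, 75.1 and 74.2 in p300-KO, against 20.4, 17.4, 3.75, 13.1 and 25.8 in WT. Both knockouts lay above all WT libraries. The rise was 1.86 ± 0.49 in CBP-KO (limma adjusted p = 0.0347) and 2.03 ± 0.49 in p300-KO (adjusted p = 0.0183). Without CBP-KO_1, CBP-KO_53 or CBP-KO_55 the first call was lost, with adjusted p up to 0.144, as it was without WT_46 and p300-KO_18 (0.0524), and without p300-KO_287 or p300-KO_289 the second was lost (0.077 and 0.0793). Lamc1, a laminin chain, rose by 0.29 ± 0.08 in CBP-KO, a call lost in 14 of 20 settings, and by 0.36 ± 0.08 in p300-KO (limma adjusted p = 0.0468 and 0.0136), where it was lost without p300-KO_289 (0.0766). Mfge8, a ligand of αv integrins, averaged 405 ± 12.2 in p300-KO and 240 ± 47.9 in WT normalized counts (adjusted p = 0.00903). C3, the source of the β2 integrin ligand iC3b, fell by 1.22 ± 0.28 in p300-KO (limma adjusted p = 0.0147, and 0.0708 without p300-KO_287), and Icam5, named after its values were seen, also rose, a call lost in 14 of 20 settings.

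Of 11 tested membrane proteins that associate with integrins, 2 fell in CBP-KO against WT, and 1 rose and 1 fell in p300-KO against WT. Over all genes 4.88% fell in CBP-KO, and 5.84% rose and 6.09% fell in p300-KO. The tetraspanin Tspan32 stood at 755, 624 and 543 normalized counts in CBP-KO, at 1612, 1780.3 and 1411 in p300-KO, and at 1222, 1280, 1492, 1081 and 1152 in WT. CBP-KO lay below all other libraries, by 0.96 ± 0.13 against WT (limma adjusted p = 0.000738). Cd82, another tetraspanin, fell by 0.35 ± 0.08 in CBP-KO (adjusted p = 0.0144), a call lost without CBP-KO_53 or CBP-KO_55 (0.0602 and 0.0851). Cd47, the integrin-associated protein that binds αvβ3, averaged 6946 ± 535 in p300-KO and 8642 ± 254 in WT normalized counts (limma adjusted p = 0.00395). Bsg rose by 0.23 ± 0.06 in p300-KO (adjusted p = 0.0277), a call lost in 7 of 20 settings. Between the knockouts, CBP-KO had Cd47 higher and Tspan32, Cd82 and Cd81 lower, of which Cd81 was named after its values were seen. The Cd47 call between the knockouts was lost in 12 of 20 settings and that of Cd81 in 5.

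The pattern over the 11 libraries was compared for the called member with the smallest p in each knockout against WT, among 12107 genes with a mean of at least 100. For Itgb1 the highest Pearson correlations of log2(value + 1) were with Car13 (0.943), Lefty1 (0.940) and Grb2 (0.927). For Itga6 they were with Inip (0.970), Fam221a (0.964) and Igf2bp3 (0.956). Igf2bp3 averaged 1547 normalized counts in CBP-KO and 789 in p300-KO, against 2313 in WT. These are descriptions over libraries that share groups, with no test.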

How the data were processed

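RNA of sorted germinal center B cells was sequenced in 3 CBP-KO, 3 p300-KO and 5 WT libraries, grouped by the sample labels. Per the labels, libraries were made from total RNA with the TruSeq RNA v2 kit, an unstranded protocol. Per the submitters' processing notes, CASAVA 1.8, HISAT2, featureCounts, DESeq2 and the build mm10 were used. The deposited values, used as a signal per gene, are read counts scaled by the authors with a DESeq2 size factor for each library. Whole reads were recovered from 100% of values, within 1e-06, and summed to the depth. No column was left out.

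The table lists 48593 genes, of which 22043 had no read in any library. The 16515 genes whose mean reached 10 were tested with limma 3.58.1 (variance trend) on log2(value + 1), in 1 fit of 3 groups, two-sided, at a Benjamini-Hochberg adjusted p below 0.05. The fit was tested on simulated counts with the same spread setting for every gene and no library set apart. That test does not cover libraries such as WT_46. Alternatives were a pseudocount of 5, a mean of at least 50, no filter, TMM, edgeR 4.0.16 and DESeq2 1.42.0 on recovered reads, only the 2 groups compared, a covariate for sex read from Xist and Y-linked transcripts (fitted without p300-KO_18), and libraries left out. edgeR called 1323, 1961 and 1525 genes in CBP-KO against WT, p300-KO against WT and CBP-KO against p300-KO, where limma called 1380, 1970 and 1556. The labels do not say that libraries came from separate mice, so p-values measure the spread between these samples.

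The integrins, gene lists and naming rule (all integrins, the targeted genes, and up to 4 called genes per list and knockout by smallest p) were chosen with earlier results of these data known. The result of 1 marker gene is not reported here. Gene positions and exon lengths are from GENCODE M21 (GRCm38, the build of mm10). Software was R 4.3.3, pandas 2.3.3 and matplotlib 3.10.9 under Python 3.11.15.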

Additional observations from a re-analysis of the deposited data

Results flagged for a closer look

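Of 30 transcripts for which the 5 WT libraries were examined, 2 had 1 WT library far from the other 4. WT_46 held Itgam at 181.2 normalized counts, where the nearest WT library was at 46.8. It also held Itgb3 at 13040.0, where the nearest was at 8686. The gap to the nearest library took up 0.839 of the range of WT for Itgam and 0.916 for Itgb3, above Dixon's critical value of 0.71 for 5 samples. Chance flags about 1 in 20 groups.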

How the results depend on the processing

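Of 30 member results (10 transcripts in 3 comparisons), 9 were called, and 5 of these stayed called under all 20 alternatives. DESeq2 called 2338 genes in CBP-KO against p300-KO and a covariate for sex with p300-KO_18 left out 913, against 1556 by limma. Leaving out p300-KO_18 alone gave 849. Leaving out 1 library gave 642 to 1541 genes in CBP-KO against WT, 1169 to 2027 in p300-KO against WT and 745 to 1954 in CBP-KO against p300-KO. The lowest counts came without CBP-KO_55, p300-KO_289 and CBP-KO_55, in that order, where an arm held 2 samples. The cause of the other shifts was not tested. Of the uncalled members, some changed sign. In CBP-KO against WT, leaving out 1 library gave log2 differences of -0.028 to 0.12 for Itgav and -0.18 to 0.046 for Itgb7. In CBP-KO against p300-KO it gave -0.13 to 0.14 for Itgae, -0.48 to 0.27 for Itgam and -0.10 to 0.0018 for Itgb1. Itgam there was at 0.27 without WT_46 and p300-KO_18 and at 0.13 with the covariate for sex and p300-KO_18 left out, and leaving out p300-KO_18 alone gave 0.27. Without WT_46 and p300-KO_18 the members called were 0 higher and 2 lower in CBP-KO against WT, 1 and 2 in p300-KO against WT, and 1 and 2 between the knockouts. Without CBP-KO_53, CBP-KO_55 or WT_4, all 3 member calls in CBP-KO against WT were lost. No paired analysis was possible because no replicate number occurs in more than 1 group. Precision was low for Itgam and Itgax, at 7.24 to 204.8 normalized counts, with SDs of 67.1 and 77.9 in WT. How far depth or the spread between libraries set it was not tested. Few reads also underlie called genes of low level, among them Parvb, Itga3 and Cdh1. Parvb had 4 to 12 reads in p300-KO libraries, and in WT libraries Itga3 had 8 to 20 and Cdh1 4 to 44.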
